A study of Homo sapiens with 11 samples.

Results

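The 50 genes described here belong to the NRF2 pathway, the glutathione and thioredoxin systems and related redox functions. They were chosen by symbol from the 23228 genes of the deposited count tables, by a list drawn up with earlier results of these data known, and all 50 were present in all 11 libraries and passed the filter on low counts. U2OS is an osteosarcoma line and MDA-MB231 a basal breast cancer line. Each line was given doxorubicin (1 µM), etoposide (20 µM), methyl methanesulfonate (MMS, 40 µg/mL) or paclitaxel (0.2 µM) for 8 h, or the vehicle DMSO, with no genetic change in any group. Doxorubicin and etoposide are both topoisomerase II poisons, and doxorubicin also intercalates into DNA. MMS is an alkylating agent and paclitaxel a microtubule stabiliser. The doses were meant as each drug's 72 h half-maximal inhibitory dose, per the series' design text. Each line had 1 library per drug. DMSO was given in 1 U2OS library and in 2 MDA-MB231 libraries. MDA-MB231 DMSO replicate 1 shares its title form with doxorubicin, etoposide and paclitaxel, and replicate 2 with MMS. The labels call replicate 2 DMSO in the treatment field and untreated in the description. Values for a drug therefore rest on 2 libraries, 1 per line. The 2 lines served as the replicates, so a call is of the mean over both and needs no change in each line. Separate cultures are not stated in the labels, so the p-values measure only the spread between these libraries. That spread includes differences in response between the lines.

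NRF2, the product of NFE2L2, is a transcription factor that KEAP1 holds in the cytoplasm and marks for degradation. When reactive cysteines of KEAP1 are modified by oxidants or electrophiles, NRF2 escapes, pairs with a small MAF protein such as MAFG, and binds antioxidant response elements near its target genes. The targets include the enzymes that make glutathione, the cell's main thiol buffer, and thioredoxin reductase, which keeps thioredoxin reduced. Peroxiredoxins and glutathione peroxidases use these thiols to reduce peroxides, glutathione transferases conjugate glutathione to electrophiles, and the pentose phosphate pathway and malic enzyme supply the NADPH on which the whole system runs.

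The depth was 16774156 to 31588683 gene-assigned counts per library. Reads aligned to several places made up 28.42% to 37.47% of those tabulated. The labelled lines were distinguishable by markers in part. KRT19, an epithelial keratin, had at most 0.344 CPM, here meaning counts scaled to library size with TMM factors, in U2OS libraries and 65.3 to 182 CPM in MDA-MB231 libraries, and ALPL, a bone alkaline phosphatase, had 1.81 to 12.9 CPM in U2OS and at most 0.281 CPM in MDA-MB231. The late osteoblast genes BGLAP and IBSP had at most 2 reads in any library, and CDH11, a cadherin of osteoblasts, was lower in U2OS (2.5 to 26.2 CPM) than in MDA-MB231 (98.1 to 370.0 CPM). Not all epithelial genes went the same way: KRT8 had 171 to 749 CPM in U2OS and 149 to 340.0 CPM in MDA-MB231, and the 6 epithelial genes summed to 1240.0 CPM in U2OS DMSO and to 872 and 990.0 CPM in MDA-MB231 DMSO. HBB, which marks red blood cells, had 0 reads throughout, but other genes of the 8 blood and immune genes read were detected. CD14 had 1.16 to 14.1 CPM in MDA-MB231 and at most 2.15 CPM in U2OS. ITGAM had at most 61 reads and PTPRC at most 12 reads in any library. The 2 MDA-MB231 DMSO libraries show how far the redox genes differed in 1 pair of libraries without a drug, and U2OS has no such pair. Replicate 2 over replicate 1 spanned log2 ratios from -0.57 (PRDX2) to 0.39 (NQO1), and 0 of the 49 genes with a CPM of at least 5 in either library passed 2-fold, against 1.78% of all genes.

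With MMS, transcripts of the classic inducible NRF2 targets rose in both lines, while most of those for peroxide-reducing and conjugating enzymes did not pass the test. NRF2 protein and activity were not measured, and which regulator raised these transcripts was not tested. Of the 50 genes, 15 rose and 0 fell (edgeR quasi-likelihood test, adjusted p under 0.05), against 5.23% of all 15888 genes tested rising and 5.16% falling. All 8 classic inducible targets rose, with 2 of 3 genes for NRF2 and its regulators, 2 of 4 for glutathione synthesis and recycling, 1 of 4 of the thioredoxin system, 1 of 11 glutathione transferases and 1 of 4 NADPH suppliers. None of the 9 peroxiredoxins and glutathione peroxidases, the 4 glutaredoxins or the 3 superoxide dismutases and catalase passed the test. The median log2 fold change was 0.11 over the 50 genes, 1.81 over the inducible targets and -0.04 over all genes. These role groups were drawn up with earlier results of these data known, so their counts and medians are descriptive. GCLC, GCLM and TXNRD1, also NRF2 targets, stand in other groups. Each line's own libraries gave 13 genes up and 1 down of 49 past 2-fold in U2OS (all genes 7.32% up and 11.2% down) and 11 up and 0 down of 49 in MDA-MB231 (2.71% up and 3.4% down). These are bulk libraries, in which fewer cells of a kind and less RNA per cell cannot be told apart. Without the U2OS MMS library, no gene of the 50 or of the whole table was called, 14 of the 50 had an unadjusted p under 0.05, and HMOX1 had a log2 fold change of 3.38 with an adjusted p of 0.113. The calls of FTH1, GSTM3, ME1, NFE2L2 and TRIM16 were also lost without U2OS DMSO, and those of FTH1, GSTM3 and ME1 without MDA-MB231 DMSO replicate 1. FTH1 and ME1 were lost without either paclitaxel library, ME1 without either etoposide library, and FTH1 without MDA-MB231 MMS or its DMSO library.

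**Figure D1:**
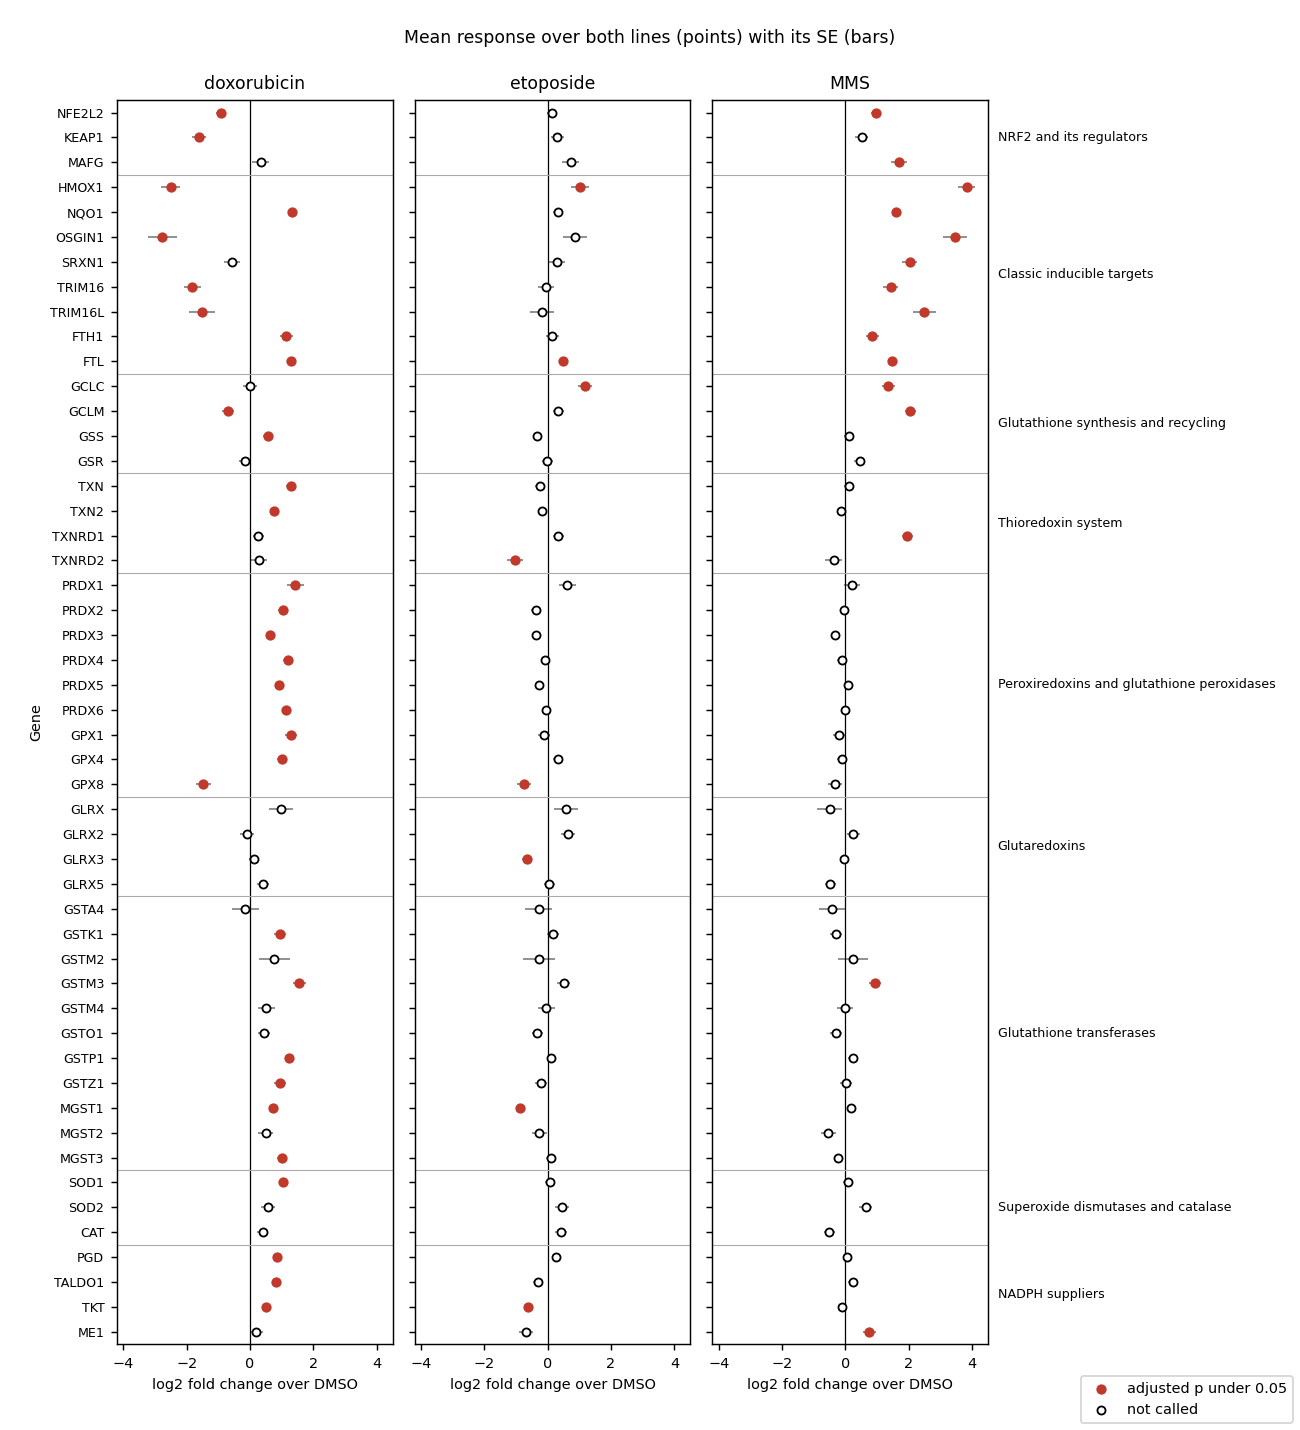
Log2 fold change over DMSO (x axis) of each of the 50 genes (y axis, grouped by role) for doxorubicin, etoposide and MMS, as the mean over both lines with its SE (bars), filled where the adjusted p was under 0.05. With MMS the 15 filled points include all 8 inducible targets, and with doxorubicin 24 filled points, among them 8 peroxiredoxins and peroxidases and 6 transferases, lie above 0 and 8 filled points below it.

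HMOX1, the heme oxygenase that breaks heme down to biliverdin, iron and carbon monoxide, had the highest fold change with MMS of the 50 genes. Its level was 648 CPM with MMS in U2OS cells, 75.1 with etoposide, 31.7 with paclitaxel and 5.18 with doxorubicin, against 40.7 with DMSO. In MDA-MB231 cells it was 133 CPM with MMS, 37.9 with etoposide, 11.2 with paclitaxel and 4.07 with doxorubicin, against 14.5 and 12.8 with DMSO. The MMS and etoposide libraries were above, and the doxorubicin libraries below, every DMSO library of their own line. The mean response to MMS was a log2 fold change of 3.83 ± 0.27 (SE, 14.2-fold, adjusted p = 0.00107). OSGIN1, an oxidative stress-induced growth inhibitor, was likewise highest with MMS and lowest with doxorubicin in both lines, with 148 CPM in U2OS and 77.3 in MDA-MB231 with MMS, 25.8 and 12.2 with etoposide, 12.5 and 7.75 with paclitaxel and 0.879 and 1.92 with doxorubicin, against 11.8 with DMSO in U2OS and 7.48 and 9.0 in MDA-MB231. Its response to MMS was 3.45 ± 0.38 on the log2 scale (adjusted p = 0.00471).

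SRXN1, sulfiredoxin, restores peroxiredoxins that have been overoxidised. It had 572 CPM in U2OS and 501 CPM in MDA-MB231 with MMS, 195 and 131 with etoposide, 120.4 and 125 with paclitaxel and 69.0 and 112 with doxorubicin, against 121 with DMSO in U2OS and 135 and 144 in MDA-MB231. The MMS library was the highest of its line in both lines, and the log2 fold change was 2.02 ± 0.24 (adjusted p = 0.0056). NQO1, a quinone reductase that uses NADPH, had 396 and 340.4 CPM with MMS in U2OS and MDA-MB231, 330 and 204 with doxorubicin, 181 and 90.7 with etoposide and 138 and 85.4 with paclitaxel, against 142 with DMSO in U2OS and 78.7 and 103 in MDA-MB231. It was the one among the 6 targets other than ferritin genes that was high with both MMS and doxorubicin, at 1.60 ± 0.14 with MMS (adjusted p = 0.00153).

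TRIM16, a ubiquitin ligase of the TRIM family, and TRIM16L, its shorter near copy, were both raised by MMS, and reads that fit either are uncertain. TRIM16 had 69.0 CPM in U2OS and 39.6 CPM in MDA-MB231 with MMS, 19.0 and 23.5 with etoposide, 19.2 and 21.6 with paclitaxel and 6.64 and 5.85 with doxorubicin, against 20.4 with DMSO in U2OS and 20.1 and 20.6 in MDA-MB231. TRIM16L had 70.9 and 22.5 CPM with MMS, 11.2 and 4.73 with etoposide, 8.17 and 7.47 with paclitaxel and 2.83 and 2.95 with doxorubicin, against 10.6 with DMSO in U2OS and 5.31 and 6.06 in MDA-MB231. Their responses to MMS were 1.43 ± 0.24 (adjusted p = 0.0123) and 2.49 ± 0.35 (adjusted p = 0.00811) on the log2 scale. The ferritin subunits, which store iron, rose too. FTL, the light chain, had 1916 CPM in U2OS and 1915 CPM in MDA-MB231 with MMS, 1805 and 1745 with doxorubicin, 952 and 1084 with etoposide and 670.1 and 803 with paclitaxel, against 672 with DMSO in U2OS and 791 and 696 in MDA-MB231. Its MMS and doxorubicin libraries were above all other libraries. FTL gained 1.47 ± 0.13 and FTH1 0.84 ± 0.20, the second with an adjusted p of 0.0343.

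**Figure D2:**
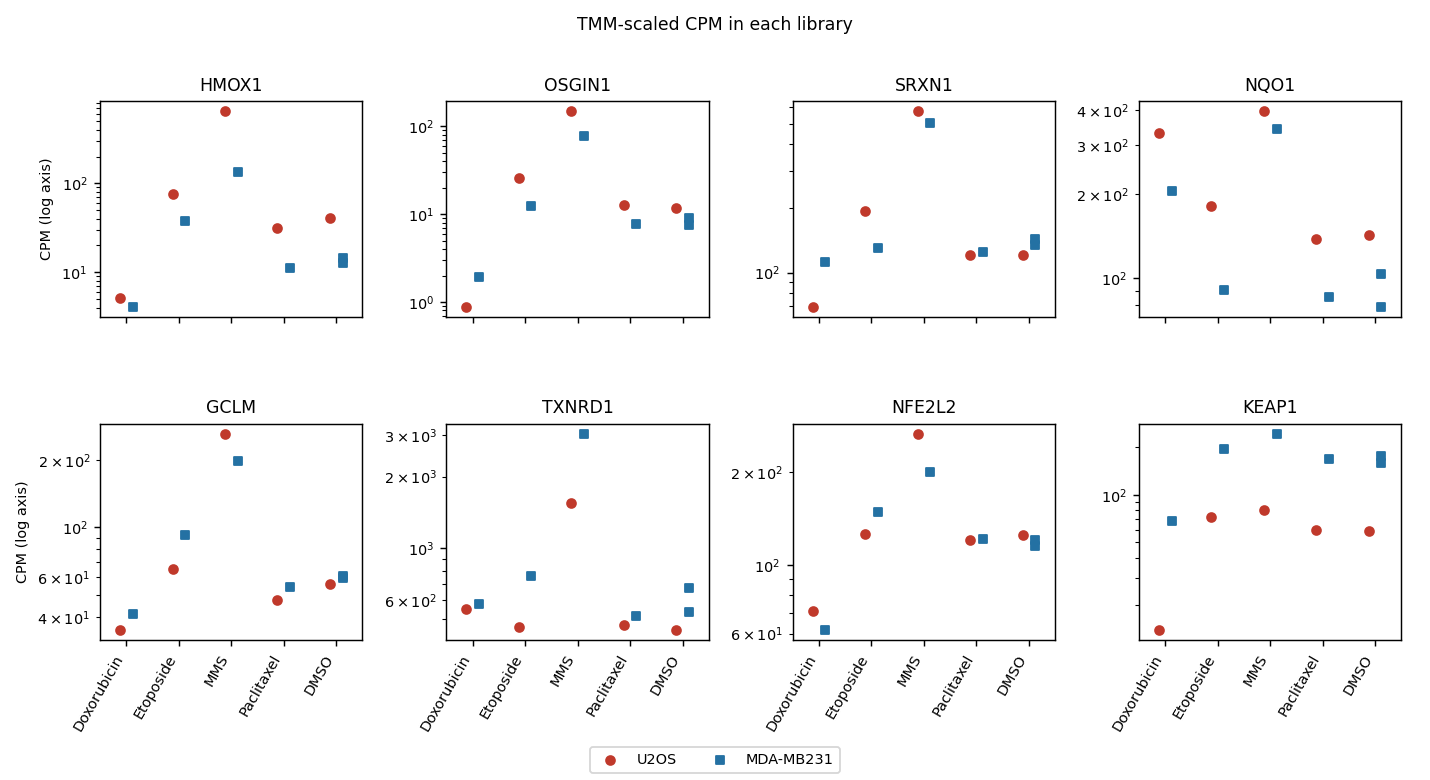
TMM-scaled CPM on a log axis in each of the 11 libraries for 6 NRF2 targets and for NFE2L2 and KEAP1, by treatment, with U2OS as circles and MDA-MB231 as squares. HMOX1 reaches 648 CPM with MMS in U2OS and falls to 5.18 CPM with doxorubicin, while NQO1 lies above DMSO with both drugs.

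Among the regulators, NFE2L2 itself had 265 CPM in U2OS and 200.4 CPM in MDA-MB231 with MMS, 126 and 148 with etoposide, 120.5 and 122 with paclitaxel and 71.1 and 61.7 with doxorubicin, against 125 with DMSO in U2OS and 115 and 120.2 in MDA-MB231. Both MMS libraries were above and both doxorubicin libraries below all DMSO libraries, with a response to MMS of 0.96 ± 0.16 (adjusted p = 0.0111). KEAP1, the inhibitor, had 80.6 and 242 CPM with MMS, 72.7 and 196 with etoposide, 60.4 and 167 with paclitaxel and 14.0 and 68.7 with doxorubicin, against 58.7 with DMSO in U2OS and 159 and 177 in MDA-MB231. Its log2 fold change with MMS, 0.51 ± 0.20, did not pass the test (adjusted p = 0.131). MAFG, the small MAF partner, had 330.0 CPM in U2OS and 197 CPM in MDA-MB231 with MMS, 129 and 192 with etoposide, 78.3 and 115 with paclitaxel and 113 and 126 with doxorubicin, against 63.8 with DMSO in U2OS and 109 and 97.6 in MDA-MB231. It rose with MMS by 1.70 ± 0.25 on the log2 scale (adjusted p = 0.00905). Its etoposide libraries also lay above DMSO, by 0.72 ± 0.27 without passing the test (adjusted p = 0.0939), and MMS minus etoposide did not pass either (adjusted p = 0.0721).

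Glutathione is made by glutamate-cysteine ligase, a dimer of the catalytic subunit GCLC and the modifier subunit GCLM, followed by glutathione synthetase, GSS. GCLM had 260.0 CPM in U2OS and 198 CPM in MDA-MB231 with MMS, 65.1 and 92.5 with etoposide, 47.6 and 54.6 with paclitaxel and 35.1 and 41.4 with doxorubicin, against 56.0 with DMSO in U2OS and 61.0 and 59.6 in MDA-MB231. GCLC had 167 and 88.0 CPM with MMS, 134 and 99.4 with etoposide, 62.7 and 33.4 with paclitaxel and 50.9 and 50.2 with doxorubicin, against 65.5 with DMSO in U2OS and 37.5 and 38.7 in MDA-MB231. The modifier subunit rose more with MMS (2.04 ± 0.17, adjusted p = 0.00153) than the catalytic one (1.35 ± 0.21, adjusted p = 0.0096), a difference that was not tested. Neither GSS (0.11 ± 0.14) nor GSR, the reductase that recycles oxidised glutathione (0.45 ± 0.17, adjusted p = 0.127), passed the test.

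In the thioredoxin system the response to MMS lay in the cytosolic reductase. TXNRD1 had 1540.0 CPM in U2OS and 3026 CPM in MDA-MB231 with MMS, 465 and 757 with etoposide, 473 and 514 with paclitaxel and 553 and 580.0 with doxorubicin, against 450.2 with DMSO in U2OS and 536 and 677 in MDA-MB231. That was a log2 fold change of 1.96 ± 0.17 (adjusted p = 0.00173), whereas thioredoxin itself, TXN, had 0.11 ± 0.16, the mitochondrial TXN2 had -0.14 ± 0.14 and the mitochondrial reductase TXNRD2 had -0.37 ± 0.26. GSTM3, a mu-class glutathione transferase (0.94 ± 0.20, adjusted p = 0.0242), and ME1, cytosolic malic enzyme (0.75 ± 0.20, adjusted p = 0.0455) completed the 15. In MDA-MB231, GSTM3 had 53.1 CPM with MMS, near the 51.0 CPM of DMSO replicate 1 and above the 37.8 CPM of replicate 2. The 35 genes that did not pass the test had log2 fold changes from -0.55 (MGST2) to 0.64 (SOD2).

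The promoters of the genes that rose with MMS were read for the core letters of the antioxidant response element. Windows from 250 bases before to 50 bases after the start site came from RefSeq (GRCh38.p14), which is not the hg19 build named for the counts. The table held 54 windows, some genes having several start sites, and HMOX1, TRIM16L and FTH1 are among the genes with no entry. Each window was searched on both strands for TGACNNNGC and for TGAGNNNGC, where N is any base, and a match to either can overlap the AP-1 letters TGACTCA or TGAGTCA. A match was present in 8 of 14 windows of genes that rose with MMS (57.1%), in 15 of 40 windows of the other redox genes (37.5%) and in 29.1% of all 35116 windows of the table. The windows below are of 5 genes that rose with MMS and hold a match, in capitals, each printed in the direction of its gene.
GCLM (chr1:93909381-93909680, minus strand): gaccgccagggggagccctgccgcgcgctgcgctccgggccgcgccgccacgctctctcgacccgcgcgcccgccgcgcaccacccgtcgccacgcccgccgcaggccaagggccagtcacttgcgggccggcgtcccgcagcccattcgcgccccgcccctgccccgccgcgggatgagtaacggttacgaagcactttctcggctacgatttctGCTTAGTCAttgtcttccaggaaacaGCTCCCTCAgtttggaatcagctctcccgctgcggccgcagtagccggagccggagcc
TXNRD1 (chr12:104215529-104215828, plus strand): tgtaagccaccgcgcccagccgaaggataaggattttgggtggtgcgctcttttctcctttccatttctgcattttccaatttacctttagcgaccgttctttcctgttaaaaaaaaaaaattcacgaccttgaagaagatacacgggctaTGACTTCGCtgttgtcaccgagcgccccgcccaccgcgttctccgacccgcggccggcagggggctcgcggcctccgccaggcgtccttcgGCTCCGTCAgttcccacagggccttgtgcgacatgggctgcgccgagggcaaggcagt
NQO1 (chr16:69726511-69726810, minus strand): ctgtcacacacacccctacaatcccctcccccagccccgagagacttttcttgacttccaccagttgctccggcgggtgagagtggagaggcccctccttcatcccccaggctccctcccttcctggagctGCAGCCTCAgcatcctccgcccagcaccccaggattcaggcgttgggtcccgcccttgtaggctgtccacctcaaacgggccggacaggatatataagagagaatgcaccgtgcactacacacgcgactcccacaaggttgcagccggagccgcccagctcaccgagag
OSGIN1 (chr16:83952990-83953289, plus strand): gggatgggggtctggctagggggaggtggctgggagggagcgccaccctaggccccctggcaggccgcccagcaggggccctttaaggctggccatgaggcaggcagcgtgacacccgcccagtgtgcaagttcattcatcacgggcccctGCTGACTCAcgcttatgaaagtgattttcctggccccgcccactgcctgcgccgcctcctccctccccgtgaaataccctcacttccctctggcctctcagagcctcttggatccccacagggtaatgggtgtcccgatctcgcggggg
ME1 (chr6:83431002-83431301, minus strand): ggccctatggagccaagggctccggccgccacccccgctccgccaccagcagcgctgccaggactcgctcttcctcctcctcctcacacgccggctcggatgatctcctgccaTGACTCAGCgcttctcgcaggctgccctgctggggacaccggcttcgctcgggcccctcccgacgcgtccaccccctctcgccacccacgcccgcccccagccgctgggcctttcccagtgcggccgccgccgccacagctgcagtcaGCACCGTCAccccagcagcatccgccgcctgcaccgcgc
The OSGIN1 window holds the AP-1 letters within its match, and so does the first match in the ME1 window, while the GCLM and TXNRD1 windows each hold a pair of matches upstream of the start site. NFE2L2, GSTM3 and a second TXNRD1 window also hold a match and are not printed. MAFG, SRXN1, TRIM16, FTL and GCLC rose with MMS and have none of these letters in their windows.

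Genes outside the 50 that work with them were counted in the same fit. With MMS, 5.23% of all genes rose and 5.16% fell. Of 22 other NRF2 target genes, 6 rose and 1 fell with MMS. SLC7A11, the cystine importer, rose by 3.11 ± 0.22 on the log2 scale (adjusted p = 0.00107), AKR1C2, an aldo-keto reductase, by 2.36 ± 0.35 (adjusted p = 0.00876), and its paralog AKR1C1 by 2.22 ± 0.45 (adjusted p = 0.0213), with reads shared by the AKR1C genes uncertain. Of 13 NRF2 partners and regulators, 3 rose and 0 fell, led by the small MAF gene MAFF (2.0 ± 0.40, adjusted p = 0.0206) and by SQSTM1, the autophagy receptor that binds KEAP1 (1.58 ± 0.18, adjusted p = 0.0053). Of 15 genes for cysteine supply and glutathione turnover, 4 rose and 0 fell. SLC7A11 and SQSTM1 stand in a second list each and are counted in both. They included CHAC1, which degrades glutathione (3.92 ± 0.33, adjusted p = 0.00153), and CTH, which makes cysteine from cystathionine (3.52 ± 0.53, adjusted p = 0.00926). Among 23 other redox enzymes tested, 2 rose and 1 fell, which is near the shares over all genes. SESN2, a sestrin, rose by 3.22 ± 0.30 (adjusted p = 0.00184), SELS rose, and PTGES, a prostaglandin synthase, fell (-1.49 ± 0.21, adjusted p = 0.0076).

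With doxorubicin, enzymes of peroxide reduction, conjugation and the pentose phosphate pathway rose, while NFE2L2, KEAP1 and 5 NRF2 targets fell. In all, 24 of the 50 rose and 8 fell, against 21.9% of all genes rising and 20.6% falling with this drug, and the median log2 fold change was 0.56 over the 50 and 0.07 over all genes. The share that fell, 8 of 50, is near the background. Calls of GSS and TKT were lost without MDA-MB231 DMSO replicate 1 or U2OS DMSO, GSS also without MDA-MB231 doxorubicin, GCLM without U2OS DMSO or U2OS doxorubicin, and TRIM16L without U2OS doxorubicin. Within a line, 14 genes were up and 7 down of 49 past 2-fold in U2OS (all genes 14.3% up and 18.3% down), and 13 up and 5 down of 50 in MDA-MB231 (8.19% up and 18.8% down).

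Of the 9 peroxiredoxins and glutathione peroxidases, 8 rose with doxorubicin and GPX8 fell. PRDX1, a cytosolic peroxiredoxin, had 2566 CPM in U2OS and 1384 CPM in MDA-MB231 with doxorubicin, 954 and 1138 with etoposide, 896 and 743 with MMS and 897 and 507 with paclitaxel, against 987 with DMSO in U2OS and 540.2 and 545 in MDA-MB231. GPX1, the abundant cytosolic glutathione peroxidase, had 333 and 375 CPM with doxorubicin, 151 and 113 with etoposide, 119.9 and 129 with MMS and 123 and 170.0 with paclitaxel, against 130.2 with DMSO in U2OS and 159 and 146 in MDA-MB231. The doxorubicin library was the highest of its line for both genes, with log2 fold changes of 1.43 ± 0.26 for PRDX1 (adjusted p = 0.00259) and 1.30 ± 0.19 for GPX1 (adjusted p = 0.00112). The other peroxiredoxins rose by 0.635 (PRDX3, of mitochondria) to 1.20 (PRDX4, of the endoplasmic reticulum), and GPX4, which reduces lipid hydroperoxides in membranes, rose by 1.02 ± 0.16 (adjusted p = 0.0015).

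GPX8, a membrane protein of the endoplasmic reticulum, went the other way, with 37.2 CPM in U2OS and 35.4 CPM in MDA-MB231 with doxorubicin, 85.0 and 40.6 with etoposide, 91.1 and 73.3 with MMS and 103 and 79.4 with paclitaxel, against 119 with DMSO in U2OS and 89.9 and 85.3 in MDA-MB231. Its log2 fold change with doxorubicin was -1.47 ± 0.22 (adjusted p = 0.00126). Thioredoxin behaved like the peroxiredoxins it reduces. TXN had 684 CPM in U2OS and 827 CPM in MDA-MB231 with doxorubicin, 206 and 330 with etoposide, 248 and 439 with MMS and 255 and 365 with paclitaxel, against 249 with DMSO in U2OS and 408 and 344 in MDA-MB231. It rose by 1.30 ± 0.16 on the log2 scale (adjusted p = 0.000535) and TXN2 by 0.76 ± 0.14, while the reductases TXNRD1 (0.26) and TXNRD2 (0.29) did not pass the test.

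Of the 11 glutathione transferases, 6 rose with doxorubicin and none fell. GSTM3 had the highest fold change of the 50 genes, with 79.4 CPM in U2OS and 184 CPM in MDA-MB231 with doxorubicin, 40.6 and 83.0 with etoposide, 63.3 and 53.1 with MMS and 24.5 and 57.7 with paclitaxel, against 28.1 with DMSO in U2OS and 51.0 and 37.8 in MDA-MB231 (1.56 ± 0.21, adjusted p = 0.000783). GSTP1, the pi-class enzyme, rose by 1.24, and GSTK1, GSTZ1, MGST1 and MGST3 by 0.71 to 0.995. SOD1, the cytosolic superoxide dismutase, rose by 1.05 ± 0.14 (adjusted p = 0.000707), while SOD2 (0.56) and CAT (0.40) did not pass. The pentose phosphate enzymes PGD (0.84), TALDO1 (0.83) and TKT (0.51) rose and ME1 did not pass, and none of the 4 glutaredoxins passed.

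NFE2L2, KEAP1 and 4 of the 8 inducible targets fell with doxorubicin, with the per-library levels given above, while MAFG had 0.33 ± 0.27 and did not pass the test. OSGIN1 fell by 2.77 ± 0.46 on the log2 scale (adjusted p = 0.00176), HMOX1 by 2.51 ± 0.31 (adjusted p = 0.000591), TRIM16 by 1.82 ± 0.27 (adjusted p = 0.0011), KEAP1 by 1.61 ± 0.22 (adjusted p = 0.000812) and TRIM16L by 1.51 ± 0.40 (adjusted p = 0.0161). NFE2L2 fell by 0.91 ± 0.17 and GCLM by 0.70 ± 0.18. OSGIN1 with doxorubicin was down to 0.879 CPM in U2OS, so its fold change there rests on few reads. The other called targets rose, NQO1 by 1.33 ± 0.14 (adjusted p = 0.000325), FTL by 1.28 ± 0.13 and FTH1 by 1.14 ± 0.20, and SRXN1 had -0.56 without passing the test. Of the 8 inducible targets, 3 thus rose and 4 fell.

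**Figure D3:**
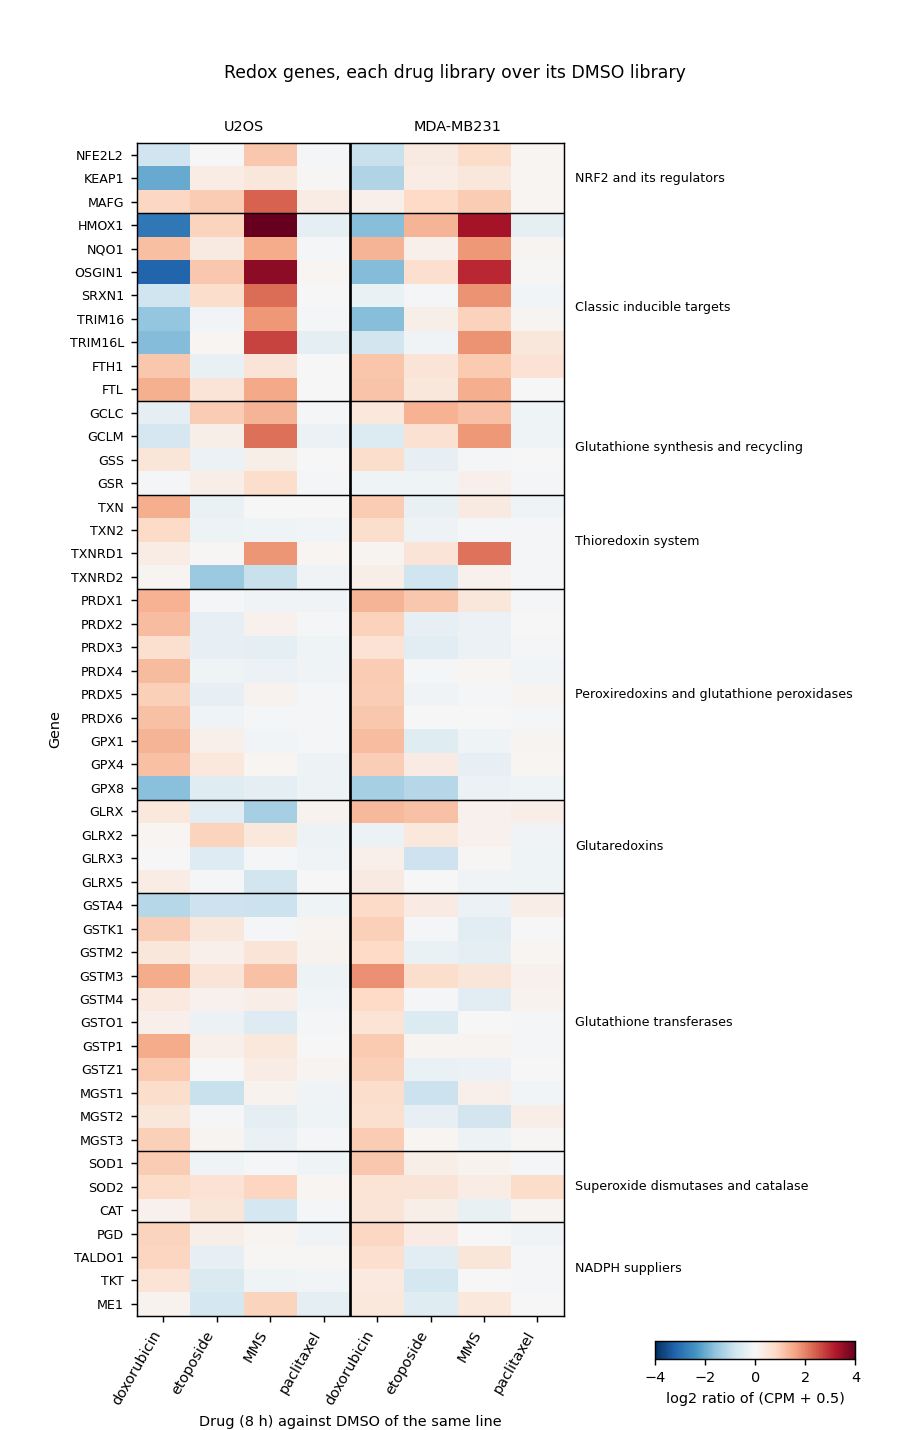
Log2 ratio of CPM + 0.5 in each drug library over the DMSO library of the same line and title form (colour, capped at ±4), with the 50 genes in rows grouped by role and the 4 drugs of U2OS and of MDA-MB231 in columns. The doxorubicin columns are red for most peroxiredoxins and transferases and blue for HMOX1 and OSGIN1, which are the darkest red with MMS, and the paclitaxel columns stay pale.

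Measures of the doxorubicin libraries as a whole moved with these results. Reads aligned to several places were 37.47% with doxorubicin in U2OS and 34.41% in MDA-MB231, against 32.72% with DMSO in U2OS and 29.97% and 30.43% in MDA-MB231. FTH1, FTL, TXN, PRDX1 and GPX1 have processed pseudogene copies, so their counts depend on how such reads were handled, and the part of this in the result was not tested. Doxorubicin had the lowest scaling factors, 0.836 in U2OS and 0.919 in MDA-MB231. Library totals without this factor shifted the median of all genes by -0.30 in U2OS and -0.12 in MDA-MB231, left 31 rather than 38 of the 50 genes above DMSO in U2OS, and still gave 22 genes up and 8 down.

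Gene span differed between the groups with doxorubicin. The 24 genes that rose had a median span of 11026 bases and at most 31325 bases (TKT), the 8 that fell 17444 bases, and the 18 others 44005 bases. Spans came from GENCODE v29 on GRCh38 and run between the outermost exons over all transcripts of its basic set. A single far-reaching transcript can therefore lengthen a gene's span. Span and log2 fold change had a Spearman rho of -0.41 over the 50 genes and -0.13 over the 13849 genes tested that had a span, as a description across genes, which are not independent and share the same libraries. With MMS rho was 0.03 over the 50 genes and -0.18 over all. Short genes that fell, GPX8 at 6954 bases and HMOX1 at 13380 bases, and a long one that was near 0, ME1 at 220683 bases, show the scatter.

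**Figure D4:**
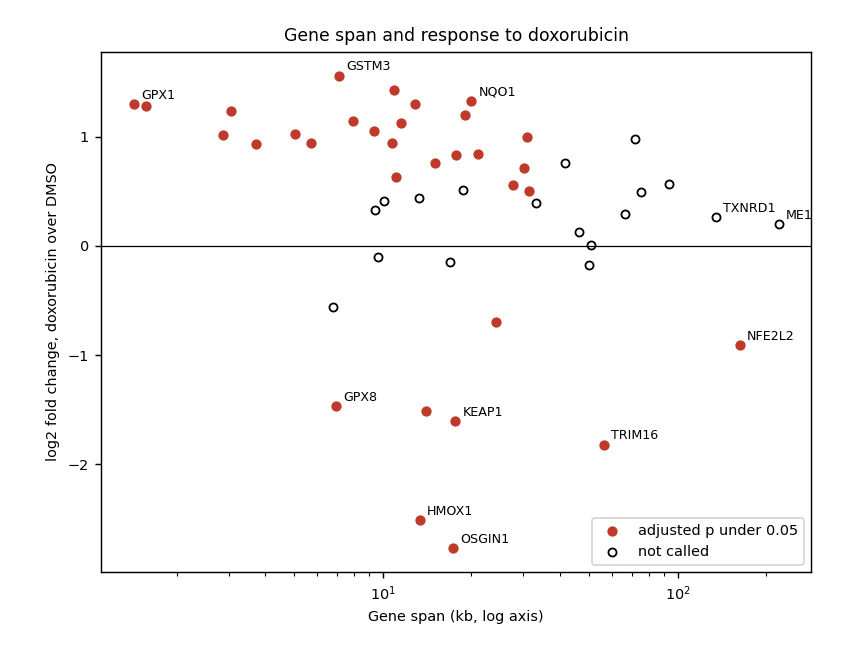
Log2 fold change with doxorubicin over DMSO (y axis) against the gene's span in kb (log x axis) for the 50 genes, filled where the adjusted p was under 0.05. No gene longer than 31325 bases rose past the test, and HMOX1, OSGIN1 and GPX8, none longer than 17266 bases, lie far below 0.

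Against 21.9% of all genes rising and 20.6% falling, doxorubicin raised 6 and lowered 0 of the 22 other NRF2 targets, with EPHX1, a microsomal epoxide hydrolase, at 2.04 ± 0.28 (adjusted p = 0.000791), ABCB6, a porphyrin transporter, at 1.8 ± 0.22 and ABCC3, a conjugate exporter, at 1.26 ± 0.35. Of the 13 partners and regulators 4 rose and 3 fell, which is near those shares, as is the count of other targets that rose. NFE2L1, the NRF2 relative NRF1, rose by 1.49 ± 0.12 (adjusted p = 0.000153), the KEAP1 partner RBX1 rose by 1.13 ± 0.15, and BACH1, a repressor of HMOX1, fell by 1.27 ± 0.28 (adjusted p = 0.00705). Glutathione turnover gave 6 up and 1 down of 15, the one down being CHAC1 (-1.82 ± 0.37, adjusted p = 0.00455), and the other redox enzymes gave 8 up and 2 down of 23, led by GPX3 at 1.29 ± 0.22.

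Etoposide moved few of the 50 genes. With 3 up and 5 down, against 7.97% and 9.23% of all genes, the counts were near the background, and the median was 0.02 as it was over all genes. GCLC rose by 1.17 ± 0.22 (adjusted p = 0.0118), HMOX1 by 1.01 ± 0.28 (adjusted p = 0.0377) and FTL by 0.48 ± 0.13 (adjusted p = 0.0352). Both etoposide libraries were above the DMSO libraries of their line for all 3 genes. TXNRD2 had 29.9 CPM in U2OS and 8.85 CPM in MDA-MB231 with etoposide, 90.4 and 18.5 with doxorubicin, 44.6 and 17.0 with MMS and 75.6 and 15.1 with paclitaxel, against 83.4 with DMSO in U2OS and 15.8 and 15 in MDA-MB231, and fell by 1.04 ± 0.26 (adjusted p = 0.0304). Without a stated strand setting, reads of genes whose exons overlap on opposite strands cannot be told apart, as for FTH1 with BEST1, PRDX1 with MMACHC, NFE2L2 with AGPS, GSTZ1 with POMT2 and SOD2 with ACAT2 and WTAP.

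MGST1, a microsomal transferase, had 42.5 CPM in U2OS and 62.2 CPM in MDA-MB231 with etoposide, 128 and 187 with doxorubicin, 86.4 and 139 with MMS and 70.8 and 105 with paclitaxel, against 78.9 with DMSO in U2OS and 114 and 120.3 in MDA-MB231 (-0.88 ± 0.13, adjusted p = 0.00688). GLRX3, a cytosolic iron-sulfur glutaredoxin, had 62.1 and 50.1 CPM with etoposide, 89.8 and 102 with doxorubicin, 84.2 and 102 with MMS and 80.4 and 79.5 with paclitaxel, against 89.3 with DMSO in U2OS and 89.1 and 98.3 in MDA-MB231 (-0.65 ± 0.16, adjusted p = 0.0274). TKT, transketolase, had 349 and 219 CPM with etoposide, 770.0 and 466 with doxorubicin, 461 and 308 with MMS and 485 and 334 with paclitaxel, against 523 with DMSO in U2OS and 355 and 311 in MDA-MB231 (-0.61 ± 0.13, adjusted p = 0.0171). In each of these genes both etoposide libraries were the lowest of their line, and GPX8 fell as well (-0.76 ± 0.22, adjusted p = 0.045). The past-2-fold counts were 3 up and 1 down of 49 in U2OS (all genes 6.11% and 7.5%) and 4 up and 1 down of 49 in MDA-MB231 (8.62% and 11.1%). Scaling by library totals gave 5 up and 3 down, and no gene was called without U2OS DMSO or without MDA-MB231 DMSO replicate 1, 1 without MDA-MB231 etoposide, and 4 without either paclitaxel library. Against 7.97% of all genes up and 9.23% down, etoposide gave 2 up and 3 down of 22 other targets, which is near the background, 5 up and 0 down of 13 partners, 0 up and 1 down of 15 turnover genes and 5 up and 6 down of 23 other redox enzymes, led by SESN3, a sestrin, at 3.02 ± 0.64 (adjusted p = 0.0178), AKR1C1 at -1.85 ± 0.52, BACH2, a BACH-family factor, at 1.66 ± 0.48 and ESD, S-formylglutathione hydrolase, at -0.85 ± 0.17.

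With paclitaxel no redox gene passed the test in either direction. The edgeR test called 0 genes up and 0 down, as it did over all genes (0.0% each way), and 0 of the 50 and 110 of all genes (0.692%) had an unadjusted p under 0.05. DESeq2 called 0 of the 50. Log2 fold changes ran from -0.48 ± 0.28 (HMOX1) to 0.34 ± 0.22 (SOD2). No gene of the 50 passed 2-fold in U2OS (all genes 0.0799% up and 0.00888% down) or in MDA-MB231 (0.462% up and 0.00923% down), and 1 passed in MDA-MB231 when DMSO replicate 2 was the comparator. None of the 4 other lists had a called gene.

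The drugs were also compared directly, which avoids setting side by side calls that share DMSO libraries. MMS minus doxorubicin gave 13 of the 50 genes up (all genes 20.4%) and 24 down (22.3%), or 16 up and 16 down with library totals in place of TMM scaling. HMOX1 (6.34 ± 0.38, adjusted p = 8.04e-05) and OSGIN1 (6.22 ± 0.53, adjusted p = 0.000159) were highest, at 81.2-fold and 74.7-fold, followed by TRIM16L (4.0 ± 0.46), TRIM16 (3.25 ± 0.30) and GCLM (2.74 ± 0.21). GPX1 (-1.49 ± 0.23, adjusted p = 0.00131), GLRX (-1.48 ± 0.49) and PRDX4 (-1.32 ± 0.18) were lowest, and 8 of the 9 peroxiredoxins and peroxidases and 7 of the 11 transferases were lower with MMS than with doxorubicin. MMS minus etoposide gave 12 up (4.73%) and 1 down (4.33%), the 1 being CAT, and the 12 included 7 of the 8 inducible targets, all but FTH1. Doxorubicin minus etoposide gave 29 up (24.1%) and 11 down (22.3%), or 21 up and 12 down with library totals in place of TMM scaling. MGST1 at 1.59 ± 0.14 (adjusted p = 0.000135) and TXN at 1.54 ± 0.17 were at the top. OSGIN1 at -3.62 ± 0.47 and HMOX1 at -3.52 ± 0.32 were at the bottom. Without the U2OS MMS library the MMS minus doxorubicin count was 22 and the MMS minus etoposide count 0.

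The lines differed in the level of 35 of the 50 genes, with 19 higher in U2OS (all genes 33.1%) and 16 lower (27.9%), near the background in both directions. TXNRD2 was 2.03 ± 0.18 higher in U2OS on the log2 scale (adjusted p = 1.61e-05), GSTP1 1.78 ± 0.10 (adjusted p = 1.56e-06), HMOX1 1.52 ± 0.19 (adjusted p = 0.000121), FTH1 1.45 ± 0.14 and GSTA4, an alpha-class transferase, 1.21 ± 0.28. GSTM2 (-3.16 ± 0.35, adjusted p = 6.18e-05), KEAP1 (-1.64 ± 0.14, adjusted p = 1.52e-05), GLRX2, a mitochondrial glutaredoxin (-1.60 ± 0.15), and GSTO1, an omega-class transferase (-1.29 ± 0.12), were lower in U2OS. GSTM2 had 0.154 to 0.429 CPM in U2OS and 1.81 to 5.05 CPM in MDA-MB231, and its exons overlap GSTM1 and GSTM4 on the same strand, so its values are uncertain. NFE2L2, SRXN1, GCLM, TRIM16 and FTL did not pass the test between lines, nor did OSGIN1 (0.58 ± 0.26).

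**Figure D5:**
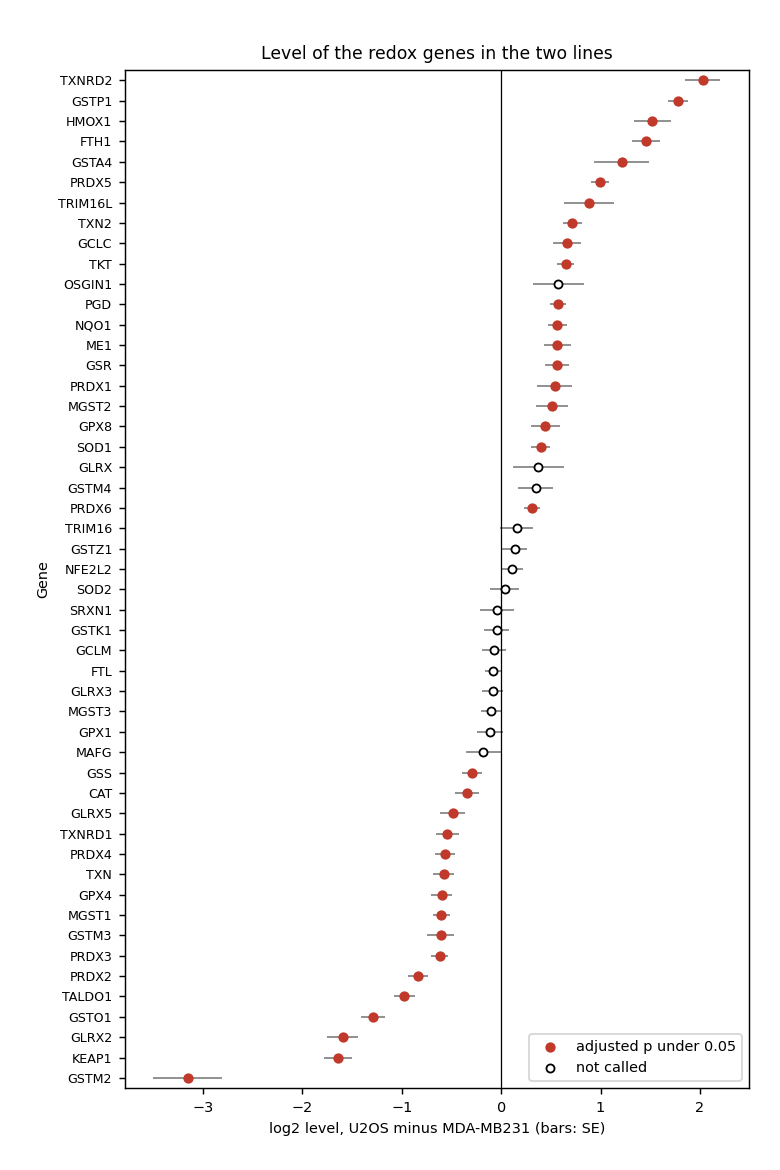
Log2 level in U2OS minus MDA-MB231 (x axis, with SE bars) for the 50 genes from highest to lowest, filled where the adjusted p was under 0.05. TXNRD2 and GSTP1 lead the 19 genes higher in U2OS, and GSTM2, KEAP1 and GLRX2 are the lowest of the 16 genes lower in U2OS.

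Levels of different genes were set side by side on a scale of CPM per kb of exon, with lengths from GENCODE v29. In U2OS DMSO, PRDX1 (788) and FTL (765) led, followed by FTH1 (409) and SOD1 (364). In the MDA-MB231 DMSO libraries FTL (901 and 793), TXN (469 and 395) and PRDX1 (431 and 436) led. NFE2L2 had 27.7 in U2OS and 25.3 and 26.5 in MDA-MB231, and KEAP1 had 18.6 in U2OS and 50.2 and 56.0 in MDA-MB231. HMOX1 (22.3 in U2OS, 7.95 and 7.03 in MDA-MB231) and OSGIN1 (4.35 in U2OS, 2.75 and 3.31 in MDA-MB231) stood far below the ferritin and peroxiredoxin transcripts in DMSO.

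Whether U2OS responded differently from MDA-MB231 was tested with a term for treated U2OS cells over the 4 drugs. None of the 50 genes was called up or down by edgeR, as over all 16530 genes tested (0.0% each way), and 1 of the 50 had an unadjusted p under 0.05. That gene was GLRX, a cytosolic glutaredoxin (-1.10 ± 0.45, unadjusted p = 0.0358). It had log2 ratios of -1.34 with MMS, -0.41 with etoposide, 0.42 with doxorubicin and 0.13 with paclitaxel in U2OS, and of 0.18, 1.18, 1.30 and 0.25 with the same drugs in MDA-MB231. DESeq2 called 0 of the 50 in this contrast. A single drug has 1 library per line and could not be tested for a line difference. The responses of the targets to MMS were side by side 3.98 (U2OS) and 3.33 (MDA-MB231) for HMOX1, with 95% intervals from 3.89 to 4.1 and from 3.17 to 3.59, 2.24 and 1.8 for SRXN1 and 1.77 and 2.16 for TXNRD1. The intervals are exact Clopper-Pearson ones and cover counting error only.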

How the data were processed

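The authors deposited raw read counts as whole numbers by gene symbol, with 23228 genes and 5 summary rows per library. Base calls came from CASAVA 1.8.2, alignments from TopHat2 2.0.8b and counts from HTSeq, on hg19, per the submitters' processing notes. The strand setting, the annotation and the handling of multi-copy genes are not stated in the labels or notes. The summary rows, among them 28.42% to 37.47% of tabulated reads per library aligned to several places, stayed out of library sizes and tests.

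All 11 libraries entered 1 fit in edgeR 4.0.16 (R 4.3.3; robust quasi-likelihood, TMM, filterByExpr, 15888 genes tested) with 4 drug terms and a block for the cell line and, in MDA-MB231, for whether the title ends in 8hr. Each of the 3 block levels holds its own DMSO library, so libraries are paired by line and title. It left 4 residual degrees of freedom and 3 with the term for treated U2OS cells, with a common biological coefficient of variation of 0.213. A call means a p under 0.05 after Benjamini-Hochberg adjustment over all genes. SE is the log2 fold change over the square root of F.

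Within a line, log2 ratios were taken of TMM-scaled CPM with 0.5 added, which pulls low genes toward 0, and counted past 2-fold where the larger CPM was at least 5, with no test. The members, their role groups and the lists were chosen with earlier results of these data known. Genes given with every library are 8 set for all drugs and up to 5 highest and 5 lowest called for each drug whose sign matches between lines, with at least 5 CPM in the higher library of each. For genes of the other lists, up to 3 called per drug are named. Alternatives were DESeq2 1.42.0, its size factors, other filters, other blocks, fewer libraries and leaving out each library. Library totals without TMM were added after the scaling factors were seen. No 2 libraries agreed within sampling noise, the lowest chi-square per degree of freedom being 7.64.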

Additional observations from a re-analysis of the deposited data

Results flagged for a closer look

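GSTA4, an alpha-class glutathione transferase that conjugates lipid peroxidation products, lay on opposite sides of DMSO in the 2 lines with doxorubicin, each by more than 1.5-fold. The log2 ratio was -1.14 in U2OS, at 8.60 CPM with doxorubicin against 19.6 with DMSO, and 0.76 in MDA-MB231, at 9.12 CPM against 5.19 with DMSO. The exact 95% intervals, for counting error only, had bounds of -1.45 and -0.93 for U2OS, and of 0.49 and 1.14 for MDA-MB231. With 1 library per line and drug the difference between the lines was not tested, and over the 4 drugs the line term for this gene did not pass (-1.0 ± 0.57, unadjusted p = 0.109, edgeR). The level of GSTA4 was 1.21 ± 0.28 higher in U2OS on the log2 scale.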

How the results depend on the processing

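Without the replicate block, the number of the 50 genes called fell to 12 with doxorubicin, 0 with etoposide, 0 with MMS, 14 for MMS minus doxorubicin, 0 for MMS minus etoposide and 11 for doxorubicin minus etoposide, with 5 genes for etoposide and 13 for MMS at an unadjusted p under 0.05. Leaving out each library in turn gave 0 to 9 genes with etoposide, 0 to 16 with MMS, 22 to 38 for MMS minus doxorubicin and 0 to 16 for MMS minus etoposide. In the same leave-out fits, the counts for doxorubicin (30 to 34), doxorubicin minus etoposide (34 to 40) and the line levels (29 to 35) moved less. With MDA-MB231 DMSO replicate 2 as the comparator, 1 gene passed 2-fold with paclitaxel in MDA-MB231. The cause of each was not tested. Of 1387 alternative values of the 73 fold changes checked, 133 lost a call, 8 gained one and 21 changed sign, all 21 of genes that were not called with that drug in either fit. Without the replicate block, log2 fold changes with paclitaxel turned to -0.21 for KEAP1, -0.17 for TXNRD1, 0.01 for NFE2L2 and 0.10 for OSGIN1. With a block for line alone they turned to -0.07 for NQO1 and -0.07 for TXNRD1, and with only paclitaxel and its DMSO libraries to 0.03 for NFE2L2 and 0.08 for OSGIN1. Leaving out each library in turn, the values with paclitaxel lay between -0.08 and 0.15 for KEAP1, -0.15 and 0.01 for NFE2L2, -0.19 and 0.07 for OSGIN1, and -0.08 and 0.18 for TXNRD1, and with etoposide between -0.05 and 0.32 for NFE2L2 and between -0.17 and 0.67 for SRXN1. Calls were kept under every alternative for 12 of 32 genes with doxorubicin, 0 of 8 with etoposide and 0 of 15 with MMS. The line response could not be fitted without U2OS DMSO, and no fit without the block exists for the contrasts of lines. Depth was lowest for GSTM2, at 3 to 11 reads in U2OS libraries, and OSGIN1 had 18 reads with doxorubicin in U2OS.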
